A study of Mus musculus with 17 samples.

Results

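The pancreatic acinar secretory programme was followed here through 37 genes of the 43346 in the deposited table of a mouse bile duct RNA-seq study. By role they comprise 18 proteases, 5 lipases with their cofactor, 3 amylases and nucleases, 6 granule and other secreted proteins, 1 water channel and 4 transcription factors. All but Amy2b, which the table lists as an unprocessed pseudogene, are protein coding. They were chosen by gene name, with no filter on expression, and several were picked because they were high in the count columns that start with R62850. The contrast between R62850 and the other columns, and the levels within R62850, therefore describe what chose the genes and were not tested.

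The tissue was taken in work on extrahepatic cholangiocarcinoma, which arises in the epithelium of the large bile ducts. It held 17 libraries, all of the 1 group bile duct, and the labels give no genotype, strain, treatment, time or age. Count columns carried 6 codes with a running number, and each code covered 3 libraries except R63494, which covered 2. What a code stands for is not given, no column could be tied to a single sample, and libraries of 1 code may share an animal, so p-values measure only the spread between these libraries, which may be technical.

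Acinar cells are the exocrine cells of the pancreas. They store digestive enzymes, most of them as inactive zymogens, in granules at the apical side and release them into the pancreatic ducts, which open together with the bile duct into the duodenum. The enzyme genes are switched on by the PTF1 complex, in which the bHLH factor PTF1A with an E protein partner and the RBPJ-like protein RBPJL bind a paired E-box and TC-box, and by the nuclear receptor NR5A2, while BHLHA15 (MIST1) governs granule organisation.

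Trypsinogens made up 8 of the 18 proteases, and their sequences are shown because close copies limit how reads can be assigned to 1 gene. All 8 lie on chromosome 6 (mm10), from 41030268, the lowest coordinate of 2210010C04Rik, to 41525079, the highest of Prss2. The first 90 coding bases are given below, 93 for 2210010C04Rik, 5′ to 3′ on the coding strand from the GENCODE transcripts, with capitals at bases that differ from Prss2.
Prss2: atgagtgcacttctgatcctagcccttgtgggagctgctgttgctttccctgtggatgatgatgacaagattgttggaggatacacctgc
Prss1: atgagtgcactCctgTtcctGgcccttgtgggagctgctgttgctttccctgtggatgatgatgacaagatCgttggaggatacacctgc
Prss3: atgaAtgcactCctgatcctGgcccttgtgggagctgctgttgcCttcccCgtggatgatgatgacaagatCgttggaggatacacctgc
Try4: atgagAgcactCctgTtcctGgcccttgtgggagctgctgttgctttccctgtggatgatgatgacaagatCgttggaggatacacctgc
Try5: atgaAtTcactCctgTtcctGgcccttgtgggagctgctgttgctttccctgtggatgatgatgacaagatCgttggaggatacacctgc
Try10: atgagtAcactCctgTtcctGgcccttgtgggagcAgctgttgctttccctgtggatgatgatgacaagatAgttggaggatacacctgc
Gm10334: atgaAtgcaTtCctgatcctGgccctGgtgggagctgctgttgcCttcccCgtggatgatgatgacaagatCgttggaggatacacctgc
2210010C04Rik: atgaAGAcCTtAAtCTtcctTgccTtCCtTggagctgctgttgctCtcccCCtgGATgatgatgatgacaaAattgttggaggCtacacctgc
Prss1 differed from Prss2 at 4 of these bases and 2210010C04Rik at 22. Over the whole coding sequence the median identity of the 28 pairs was 91.2%, with the highest, 99.1%, between Prss3 and Gm10334 and the lowest, 75.0%, between Prss2 and 2210010C04Rik. Of the 50-base windows of its transcripts, Prss3 shared 66.1% with other genes, Try4 65.6%, Gm10334 63.7%, Prss1 54.9% and Prss2 7.83%, while 2210010C04Rik shared 0. Levels of single trypsinogens are uncertain for that reason, most of all those of Prss1, Prss3, Try4 and Gm10334.

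Promoters are shown for 5 genes because they hold the paired motif that the PTF1 complex is known to bind. RefSeq promoters (GRCm38.p6) were matched for 31 of the 37 genes, and the 250 bases before the start are printed 5′ to 3′ on the gene's strand. Capitals mark an E-box (CANNTG) and a TC-box (TTTCCC, either strand) whose starts lie 9 to 12 or 19 to 23 bases apart.
Ctrb1: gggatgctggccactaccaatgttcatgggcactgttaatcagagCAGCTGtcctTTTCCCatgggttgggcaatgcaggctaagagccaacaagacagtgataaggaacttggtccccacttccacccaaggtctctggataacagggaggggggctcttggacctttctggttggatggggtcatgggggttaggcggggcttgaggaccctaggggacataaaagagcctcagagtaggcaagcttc
Cela1: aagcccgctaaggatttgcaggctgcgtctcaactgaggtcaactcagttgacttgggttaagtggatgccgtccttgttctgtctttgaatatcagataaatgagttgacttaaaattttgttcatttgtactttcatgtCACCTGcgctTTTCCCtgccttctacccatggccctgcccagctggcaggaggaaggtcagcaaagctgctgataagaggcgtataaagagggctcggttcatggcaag
Cpa1: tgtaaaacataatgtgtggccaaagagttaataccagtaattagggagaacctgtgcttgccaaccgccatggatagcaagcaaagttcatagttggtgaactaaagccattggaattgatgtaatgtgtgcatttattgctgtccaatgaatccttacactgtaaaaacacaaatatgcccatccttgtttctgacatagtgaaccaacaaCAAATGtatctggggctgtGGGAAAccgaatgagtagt
Prss1: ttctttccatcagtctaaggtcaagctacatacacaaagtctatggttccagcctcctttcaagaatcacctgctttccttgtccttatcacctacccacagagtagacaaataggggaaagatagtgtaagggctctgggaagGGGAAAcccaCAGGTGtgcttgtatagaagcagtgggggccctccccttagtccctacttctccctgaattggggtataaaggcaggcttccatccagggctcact
Cel: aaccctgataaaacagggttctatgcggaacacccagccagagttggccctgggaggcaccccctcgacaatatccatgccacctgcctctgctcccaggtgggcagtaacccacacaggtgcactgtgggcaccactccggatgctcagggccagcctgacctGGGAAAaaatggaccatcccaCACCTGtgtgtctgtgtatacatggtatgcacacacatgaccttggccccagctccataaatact
The windows are chr8:111691011-111691260 (minus strand) for Ctrb1, chr15:100687921-100688170 (minus) for Cela1, chr6:30638968-30639217 (plus) for Cpa1, chr6:41458680-41458929 (plus) for Prss1 and chr2:28563404-28563653 (minus) for Cel. The pair was in 5 of 31 members (16.1%) and in 1.78% of all 32817 promoters of that length. An E-box alone was in 27 members (87.1%, against 66.2% of all promoters), a TC-box in 9 (29.03% against 21.9%) and the NR5A2 motif AAGGTCA, on either strand, in 4 (12.9% against 4.08%). E-boxes and TC-boxes of a pair are also counted singly, and a match describes letters only, not binding.

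Acinar RNA took a large and very uneven share of the R62850 libraries. In R62850_1 the 37 genes held 0.950% of all counts, with a 95% Wilson interval of 0.946 to 0.955. Their share was 3.57% (3.56 to 3.58) for R62850_2. It reached 17.2% in R62850_3, where they took 2998591 counts. In the other 14 libraries they held 0.0614% to 0.119%, with a median of 0.0752%. Most of that came from the 8 genes that passed a count filter outside R62850, given below, with a median of 0.0746%. The other 29 genes held a median of 0.000902% there. Intervals cover counting error only, because PCR copies of a molecule could not be told from separate molecules. Totals were 16400556 to 24152314 counts per library. Levels of single genes are given as CPM, counts scaled to a common library size.

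**Figure D1:**
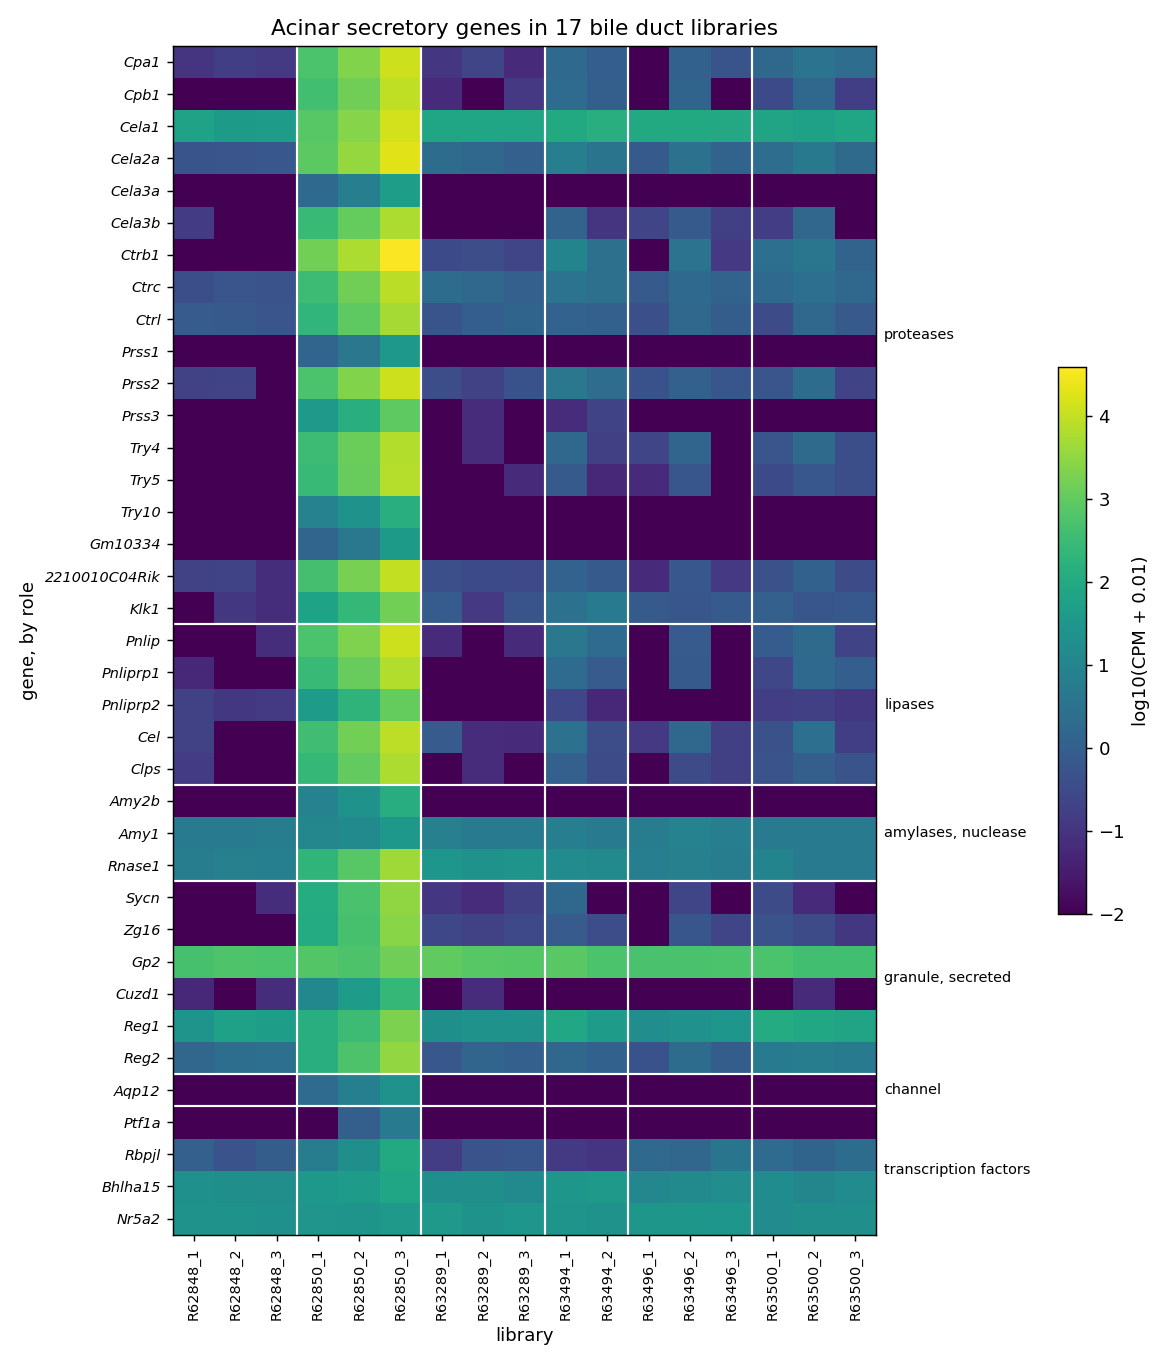
Levels of the 37 genes (rows, by role) in the 17 libraries (columns, by code), as log10 of CPM plus a small constant on the colour scale, where brighter is higher. The 3 R62850 columns stand apart for most rows and brighten from R62850_1 to R62850_3, while Gp2, Nr5a2, Bhlha15 and Cela1 are among the rows well above the darkest colour in every column.

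For 33 of the 37 genes all 3 R62850 libraries lay above all 14 others, where 1.74% of the 29354 genes with a count did so. Since the genes were picked on this contrast, nothing is read from that share. The heat map of all genes and libraries shows the 4 exceptions: Gp2, Bhlha15 and Nr5a2, which overlapped with the other codes, and Ptf1a, which had 0 counts in R62850_1. In bulk tissue, fewer cells of a type and less RNA per cell cannot be told apart.

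Among the proteases, Ctrb1, a chymotrypsinogen (ENSMUSG00000031957, chromosome 8, 111686510 to 111691010), was highest per length, at 41123 RPKM (CPM per kilobase of gene length) in R62850_3. Its CPM level was 1565, 6259 and 36476 in R62850_1, R62850_2 and R62850_3, and 0 to 9.75 elsewhere, with a median of 0.326. It was the second most abundant gene of the table in R62850_3. All 3 R62850 libraries were thus above every other library, of which 4 had no count. Prss2, the trypsinogen followed above (ENSMUSG00000057163), reached 547, 2235 and 12315 CPM in the R62850 libraries and 0 to 4.06 elsewhere. Cela1, an elastase (ENSMUSG00000023031, chromosome 15, 100674425 to 100687920), reached 766, 2581 and 14399 CPM, but differed from the other enzymes in having 39.6 to 146 CPM in every library outside R62850.

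The other proteases were ordered alike. The carboxypeptidase Cpa1 had 542, 2268 and 12867 CPM in R62850 and at most 3.22 elsewhere. Klk1, tissue kallikrein, had 67.8, 254 and 1551 CPM against at most 5.37, in R63494_2. Other proteases were far lower: Prss1 reached 32.4 CPM, Gm10334 39.2 and Cela3a 45.9 in R62850_3, and each had 0 counts in all 14 other libraries. The elastase Cela2a (881, 3639 and 20533 CPM) lies within the span of the chymotrypsinogen Ctrc on chromosome 4, with 11199 shared bases. The 2 genes had equal counts in 5 libraries outside R62850, so that their levels there are uncertain. Proteases held 74.2% of the acinar counts in R62850_3, and the 8 trypsinogens 18.4%.

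Lipases followed the same order of libraries. Clps, colipase, the cofactor of pancreatic lipase, was highest per length at 10956 RPKM in R62850_3, and had 254, 1034 and 6026 CPM in R62850 against 0 to 1.03 elsewhere. Pancreatic lipase, Pnlip (ENSMUSG00000046008), had 525, 2139 and 12267 CPM against 0 to 4.06, and the lipase-related Pnliprp1 had 295, 1171 and 7008 CPM against at most 1.997. None of these overlapped between R62850 and the rest. The bile salt-activated lipase Cel had 366, 1570 and 8800 CPM, and lipases together held 17.1% of the acinar counts in R62850_3.

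The 3 amylase and nuclease genes held 2.29% of those counts, most of it from Rnase1. Pancreatic ribonuclease, Rnase1, had 211, 762 and 4551 CPM in R62850 and 5.16 to 28.5 elsewhere, and its 4692 RPKM in R62850_3 stood above the 83.5 of Amy2b and the 9.75 of Amy1. Amy2b, an amylase copy of the unprocessed pseudogene biotype, had 8.68, 23.3 and 132 CPM and 0 counts in the other 14 libraries. Amy1, the amylase of salivary gland and liver, had 11.3, 13.8 and 33.6 CPM in R62850 and 4.90 to 8.20 elsewhere. Reads of amylases are hard to assign: Amy1 shared 1029 of its 3343 100-base windows with Rnpc3, a splicing factor gene at 17.1 to 24.7 CPM outside R62850, and Amy2b shared 169 of 1478 with the Amy2a copies.

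Granule proteins held 6.26% of the acinar counts in R62850_3. Syncollin, Sycn, a granule membrane protein, had 119, 503 and 3150 CPM in R62850 against at most 1.69 elsewhere. The lectin Zg16 had 112, 480 and 2609 CPM against at most 0.787, and the secreted lectin Reg2 had 137, 570 and 3392 CPM against 0.452 to 6.26. Reg1, of the same family, had 137, 340 and 1970 CPM, and its lowest R62850 library was 1.16 times the highest other library, R63500_1 at 118. Gp2, the main glycoprotein of the zymogen granule membrane, overlapped between the codes, at 681, 564 and 1511 CPM in R62850 and 393 to 975 elsewhere. Outside R62850 it was the highest of all 37 per length, at a median of 276 RPKM, followed by Cela1 at 69.9 and Reg1 at 48.9. The acinar aquaporin Aqp12 had 1.97, 7.04 and 24.4 CPM in R62850 and no count elsewhere.

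The 4 transcription factors held 0.110% of the acinar counts in R62850_3. Ptf1a had 0, 18 and 75 counts in R62850_1, R62850_2 and R62850_3 (0, 0.982 and 5.14 CPM) and 0 in the other 14 libraries. Against a floor of 3 counts pooled over all 14 (0.0115 CPM), R62850_3 was at least 448-fold higher. That bound holds for the pool only, since 3 counts in a single library of the 17 are 0.130 to 0.206 CPM. Rbpjl, the partner of Ptf1a, had 5.97, 18.8 and 105 CPM in R62850 and 0.0866 to 3.62 elsewhere. None of the 14 libraries was without counts of Rbpjl. Bhlha15 had 32.6, 40.8 and 81.4 CPM against 11 to 36.4, and overlapped with R63494_2. Nr5a2 had 26.9, 26.5 and 35.7 CPM against 15.3 to 36.7, a range that held all 3 R62850 libraries. Rbpjl thus lay above all other libraries in all 3 of R62850, while Bhlha15 and Nr5a2 overlapped with the others. Any count of Ptf1a in R62850 lies above the 0 elsewhere. The R62850 levels chose several of the genes, so nothing is read from this difference.

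For most of the 37 genes the 3 R62850 libraries differed from each other by a nearly common factor. From R62850_1 to R62850_3 the summed level of the 37 genes was 21.2 times higher, and the 36 single ratios that could be formed had a median of 23.2 and ran from 1.32 to 27.8. Each ratio compares 1 library with 1 library and has no replicate check. At least 4-fold was reached by 33 of the 37, where 3.50% of 18765 genes with enough counts did so and their median ratio was 1.01. The ratio uses the R62850 levels that chose several of the genes, so nothing is read from that share. Ratios within 1.5 times the summed ratio were held by 31 genes. The summed ratio is formed from these same genes, and the share over all genes was not computed, so this count is a description only. Ctrb1 stood at 23.3, with a 95% counting interval of 23.03 to 23.6.

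**Figure D2:**
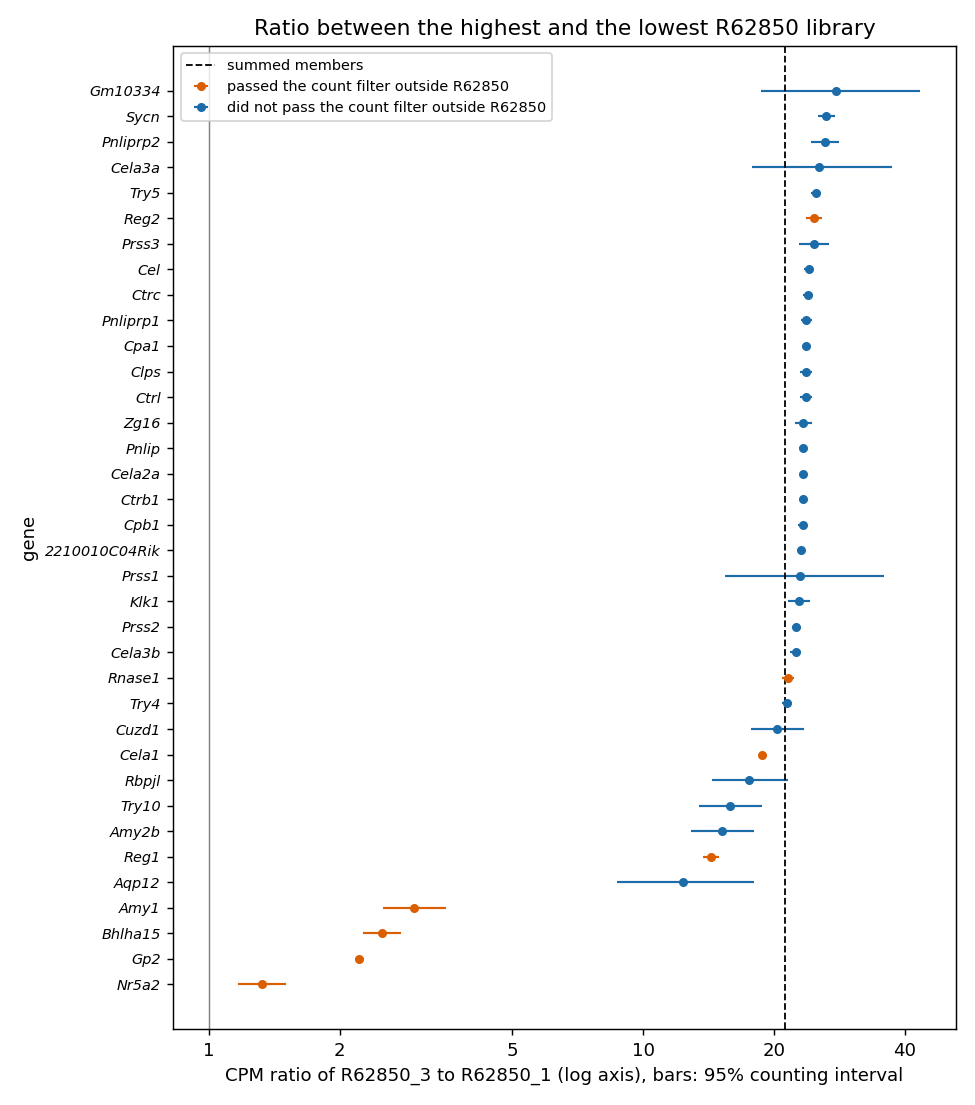
CPM ratio of R62850_3 to R62850_1 for each of the 36 genes with counts in both (log axis), with 95% counting intervals as bars and the summed level as a dashed line. Most genes sit near the line, and Amy1, Bhlha15, Gp2 and Nr5a2 lie far below it, between 1.32 and 2.97.

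The 4 lowest values in the plot of ratios belonged to genes that were well counted outside R62850. The 8 genes that passed the count filter outside R62850 (at least 10 counts at the median library size, in at least 13 of the 14 libraries) had ratios of 1.32 to 24.7 with a median of 8.65, and the other 28 a median of 23.3 with a lowest value of 12.3, for Aqp12. Amy1 was 2.97 times higher (2.51 to 3.51), Bhlha15 2.50 (2.26 to 2.77), Gp2 2.22 (2.17 to 2.27) and Nr5a2 1.32 (1.17 to 1.502). Rbpjl, which is a factor too, was far above these 4, at 17.5 (14.4 to 21.5). That lies below the median of 23.3 of the genes that did not pass. The makeup of the 29 genes that did not pass was alike in R62850_1 and R62850_3, with a Spearman correlation of 0.994 across genes, which are not independent replicates.

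Acinar transcripts were also present in trace amounts outside R62850. The 29 genes that did not pass the filter summed to 50 to 819 counts per library there, or 0.000305% to 0.00483% of the total. R62848 was lowest, at 50 to 85 counts, and R63289 had 107 to 162. R63494 had 567 and 819, R63500 265 to 615, which overlaps with R63494, and R63496 98 to 405. Ranges of R62848 and R63289 lay below those of R63494 and R63500, while R63496 overlapped with R63289 and R63500. Klk1 and Rbpjl weighed more in these sums than in R62850: Rbpjl was 7.81% of the summed counts outside and 0.0582% in R62850_3, and Klk1 7.29% and 0.863%. Rbpjl alone gave 65 of the 175 counts in R63496_3, and Klk1 124 of the 567 in R63494_2. The overlapping genes Cela2a and Ctrc were 14.6% and 10.6% of the summed counts outside, and 11.4% and 4.47% in R62850_3. Their counts were equal in all libraries of R63289, at 43 each of the 162 in R63289_1. Levels of both genes are uncertain there, and so are these sums, most of all in R63289. Of the 37 genes, 7 had no count in any of these 14 libraries and 13 had counts in all of them.

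**Figure D3:**
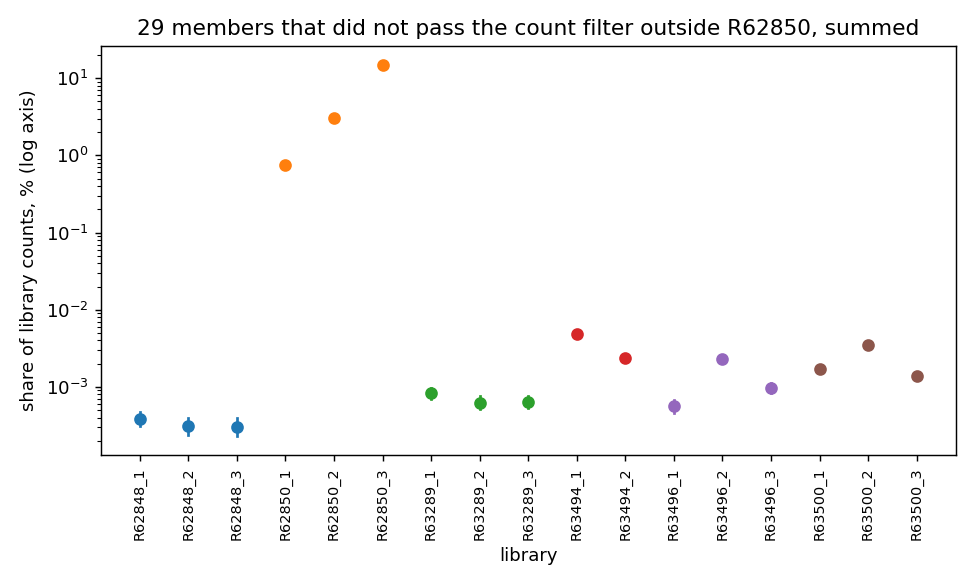
Share of library counts, in percent (log axis), of the summed 29 genes that did not pass the count filter outside R62850, for each library, with 95% Wilson intervals as bars and colours for the codes. The R62850 libraries lie far above the rest, and among the other codes R63494 and R63500 lie above R62848 and R63289.

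Ctrb1 illustrates these traces: it had 0 counts in all 3 R62848 libraries, 9.75 and 2.64 CPM in R63494, 2.62, 3.78 and 1.26 in R63500 and 0, 3.34 and 0.111 in R63496. Across the 29 genes, the makeup outside R62850 had a Spearman correlation of 0.769 with that of R62850_3, as a description across genes.

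Between the 5 codes outside R62850, 7 of the 8 genes that passed the filter differed in edgeR's quasi-likelihood test with Benjamini-Hochberg adjustment over all genes. Several genes were picked on R62850 levels, which this test leaves out, but genes and test were chosen with earlier results of these data known. The share called among all 15674 genes was 40.9%, so that a call on its own is common here. The range over code means was a median of 2.47-fold for the 8 genes and 1.42-fold for all genes. Calls by this test are described next, gene by gene.

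Cela1 was 100.2 and 146 CPM in R63494, 96.8 to 104 in R63496, 74.0 to 81.1 in R63289, 60.1 to 75.6 in R63500 and 39.6 to 65.3 in R62848. R63494 was 2.50-fold above R62848, with an adjusted p of 4.5e-04 in edgeR's quasi-likelihood test. These 2 codes did not overlap, but R63494 overlapped with R63496 and R62848 with R63500. Rnase1 was 24.2 to 28.5 CPM in R63289, 14.5 and 15.4 in R63494 and 5.16 to 9.59 in the other 3 codes, a 4.01-fold range (edgeR adjusted p = 8.1e-07). R63289 stood above all other libraries.

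The 2 Reg genes were highest in the same code. Reg1 was 70.1 to 118 CPM in R63500 and 16.8 to 29.9 in R63496, a 3.98-fold difference (edgeR adjusted p = 0.00378). R63494, at 45.2 and 85.6, overlapped with R63500. Reg2 was 5.28 to 6.26 CPM in R63500 and 0.452 to 2.51 elsewhere, a 5.24-fold range (edgeR adjusted p = 6.75e-04). Gp2 was 743 to 975 CPM in R63289 and 393 to 536 in R63500, 1.90-fold apart (edgeR adjusted p = 0.00169). Its levels in R63494, 547 and 804 CPM, overlapped with R63289, and R63500 overlapped with R62848 and R63496.

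Bhlha15 was 31.3 and 36.4 CPM in R63494 and 11 to 20.5 in the other 4 codes, with 2.43-fold between the highest and lowest code (edgeR adjusted p = 1.95e-04). Nr5a2 was lowest in R63500, at 15.3 to 18.9 CPM against 20.9 to 36.7 in the others, and 1.76-fold lower than in R63496 (edgeR adjusted p = 0.0011). Amy1 passed the count filter but was not called, at 4.90 to 8.20 CPM and a 1.27-fold range (edgeR adjusted p = 0.539). In R63494, the code with the highest Bhlha15, the summed goblet cell list was 1394 to 1507 CPM and the gastric list 35.0 to 44.5. Elsewhere outside R62850 the goblet list was 468 to 860 CPM. The gastric list was 11.5 to 12.9 CPM in R62848, 22.5 to 33.6 in R63289, 17.4 to 23.9 in R63496 and 23.4 to 31.8 in R63500. The plasma cell list was 4646 to 6252 CPM in R63494, inside the range outside R62850 of 2704 to 11004. The part of these cell types in the result was not tested. With no filter on low counts, 20 of the 30 genes that had a count outside R62850 were called by the same edgeR test, where 24.9% of all genes were. Among the low genes, Klk1 (edgeR adjusted p = 1.12e-11), Cpa1 (3.33e-08) and Rbpjl (1.59e-07) were called, and Ctrb1 (0.0947) was not. Rbpjl was 1.53 to 3.62 CPM in R63496 and 1.35 to 2.16 in R63500, but 0.121 and 0.0866 in R63494.

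**Figure D4:**
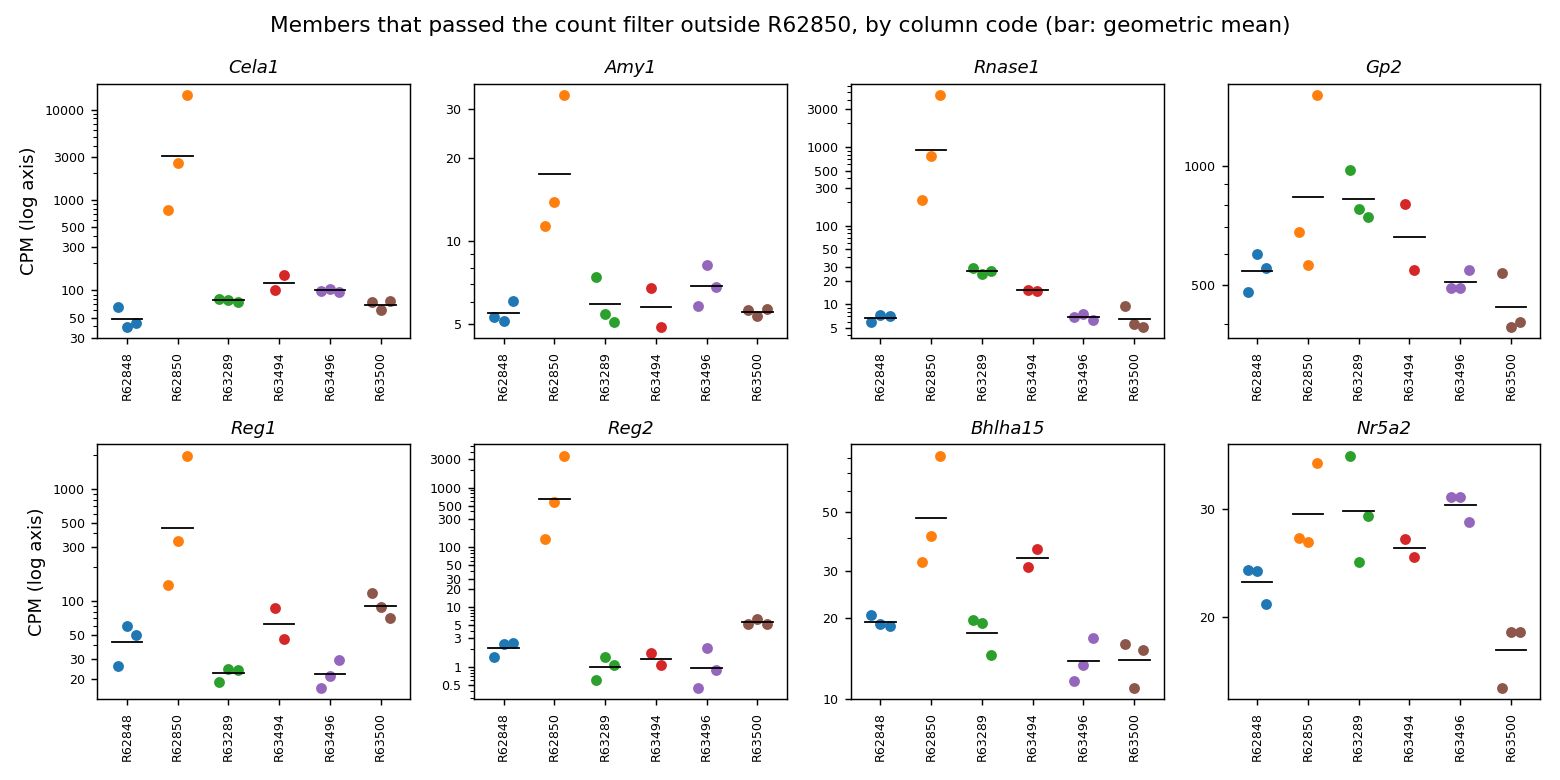
CPM of the 8 genes that passed the count filter outside R62850, in each library by code (log axes), with black bars at the geometric mean of a code. R62850 lies above all other codes for Cela1, Amy1, Rnase1, Reg1 and Reg2, and overlaps with them for Gp2, Bhlha15 and Nr5a2.

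Other pancreatic acinar genes, from a list of 34 that are not among the 37, showed part of the same pattern. All 3 R62850 libraries lay above the others for 16 of the 34 (background 1.74%), and 17 had a ratio of at least 4 between R62850_3 and R62850_1 (background 3.50%). The list was chosen with earlier results of these data known, so nothing is read from these shares. Others did not: Muc1, a membrane mucin, had 1178, 1001 and 1036 CPM in R62850 against 657 to 1517, and Xbp1, a factor of the secretory stress response, 857, 806 and 769 against 580 to 879. Tff2, a trefoil peptide, lay above all others at 944, 807 and 937 CPM against 227 to 758, but hardly differed within R62850.

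A rule of likeness asked for all 3 R62850 libraries above the others, a ratio within 2-fold of the summed one and at least 10 CPM in R62850_3. Outside the 37, 21 genes met it, all protein coding, as did 32 of the 37. The rule uses the R62850 levels that chose several of the 37 and the ratio summed over them. The share over all genes was not computed, so nothing is read from these counts. The 21 genes together held 0.0233%, 0.0901% and 0.438% of the counts in the R62850 libraries. Of the highest by CPM in R62850_3, Arhgdig had 29.9, 101 and 539 CPM, Pdia2, a pancreatic disulfide isomerase, 20.1, 89.3 and 506, and the phospholipase Pla2g1b 19.3, 64.7 and 385. Arhgdig and Pdia2 overlap on chromosome 17, so reads between them are uncertain. Gm5771, Reg3a, Spink3 (a trypsin inhibitor), Serpini2, Reg3d and Klk1b5 followed, at 109 to 352 CPM in R62850_3. Prss3 shared 98 of its 723 100-base windows with Gm5771, and Klk1 48 of 1022 with Klk1b5, so reads between these are uncertain too.

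The 12 duct genes summed to 7731, 6905 and 7050 CPM in R62850, inside the range of 6479 to 9219 elsewhere, and 0 of the 12 lay above all other libraries. Of 19 islet genes 1 did, Ins2, named after its values had been seen, and 7 were at 0 in all 3 R62850 libraries, the hormone genes Gcg and Iapp among them. Of the 19, 3 were at 0 in all 17 libraries. The islet sum was 30.5, 36.7 and 22.5 CPM against 6.80 to 33.7, above that range in R62850_2 only. Plasma cell genes (0 of 10), gastric genes (0 of 9), M cell genes (0 of 6) and salivary genes (0 of 10, with 7 at 0 in all 17 libraries) had no member above all others, goblet cell genes had 1 of 8 and adipocyte genes 2 of 5. The share over all genes with a count was 1.74%. These lists were chosen with earlier results of these data known, so nothing is read from the counts. The adipocyte sum was 20.7, 48.3 and 27.0 CPM in R62850 against 4.53 to 18.3, and the gastric sum 72.5, 62.3 and 38.5 against 11.5 to 44.5. The salivary sum was 3.04, 1.09 and 4.87 CPM against 1.69 to 32.2. Of these sums, that of the M cell genes alone rose over R62850_1, R62850_2 and R62850_3, at 698, 719 and 731 CPM, within the 650.2 to 1067 of the other libraries. The part of adipocyte, gastric and islet cells in the result was not tested.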

How the data were processed

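RNA-seq libraries of mouse bile duct were analysed from the table of whole, not normalized read counts per gene that the authors deposited. Per the submitters' processing notes, the tools were edgeR 3.40.2, featureCounts and STAR 2.6.1c and the build mm10, with no role or order. Overlapping, antisense and near-identical genes have uncertain counts, since no source used here gives the strand setting or the annotation release. A further 17 columns of per-sample values were not used here.

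The 37 genes, the gene lists and the tests were chosen with earlier results of these data known. CPM scale the counts to the kept genes' TMM-adjusted total (edgeR 4.0.16 in R 4.3.3, filterByExpr with a minimum count of 10, 15795 genes over 17 libraries), also for genes not kept, so a CPM can exceed a gene's share of all counts. RPKM used the table's gene lengths. Shares have 95% Wilson intervals and ratios 95% exact conditional binomial intervals. Codes outside R62850 were compared with edgeR's quasi-likelihood F test on 15674 genes, Benjamini-Hochberg adjusted p below 0.05. On simulated counts for that comparison (15610 genes) it recovered 52% of 50 genes changed 1.5-fold, 84% at 2-fold and 96% at 3-fold and at 4-fold, with 14 false calls. DESeq2 1.42.0, library totals, no filter and leaving out libraries were the alternatives. No 2 libraries of the 136 pairs were identical.

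Named are, by role, the 3 genes with the highest RPKM in R62850_3, all transcription factors, all genes passing the filter outside R62850, of the other genes that met the rule of likeness the 10 highest by CPM in R62850_3 (1 of them is not reported here), and up to 3 genes per list. Cpa1, Klk1, Cela2a, Cela3a, Cel and single trypsinogens were added after their values had been seen. Jchain, Spink1 and Cblif were matched by identifier to the table's Igj, Spink3 and Gif.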

Additional observations from a re-analysis of the deposited data

How the results depend on the processing

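With no filter on low counts, 20 of 30 genes of the programme differed between codes outside R62850 (edgeR, 24.9% of 29026 genes called), against 7 of 8 with it. DESeq2 called 7 of 8 and 7403 genes, and library totals 7 and 6300. Leaving out each library in turn gave 6 to 7 genes of the programme and 5130 to 7011 genes in all, and leaving out 1 of R63494 leaves 1 library there, assumed to vary like the others. The lower count came from Reg2, which dropped out of the filter in 13 of the 14 left-out settings. Where a gene was tested, 123 of 123 adjusted p-values stayed on the same side of the threshold. Of the single-gene ratios under other scalings, 31 moved beyond their counting interval and 77 did not, with a common shift of 0.851-, 0.988- or 1.02-fold. The summed ratio of R62850_3 to R62850_1 was 18.1 with library totals, 21.0 with DESeq2 size factors and 21.6 with totals without the 37 genes. Without the genes passing the filter, the share of counts was 0.754%, 3.09% and 14.99% in R62850_1, R62850_2 and R62850_3, and without trypsinogens 0.788%, 2.91% and 14.0003%. Between 33 and 35 genes lay above all other libraries when 1 R62850 library was left out. No paired analysis was possible because the labels give 1 group. Depth limits the genes at 0 to 3 counts outside R62850.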
